A study of Mus musculus with 4 samples.

Results

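The data were 4 single-cell RNA libraries of mouse retina, and the genes described here are 9 transporters that carry nutrients and hormones across the endothelium of the blood-retina barrier. They were taken by symbol from the gene lists of the deposited matrices, and all 9 were found among the 55357 genes listed. Glucose and monocarboxylates are carried by Slc2a1 and Slc16a1. Amino acids are carried by Slc38a5, by Slc7a5 with its partner Slc3a2, and by Slc7a1. Taurine is carried by Slc6a6, and organic anions with thyroid hormone by Slco1a4 and Slco1c1. Replicates 1 and 2 of the group labelled Ctrl (called Control 1 and Control 2 here) were set against replicates 1 and 2 of the Diabetic group. Live cells of all libraries had been enriched with beads against CD31, a surface protein of endothelial cells. How diabetes was produced, for how long, and the strain, age, sex and number of the mice behind a library are not given in the sources used here. Nothing says that replicates came from separate animals. The p-values therefore measure only the spread between these libraries, or of differences within them, and either may be technical.

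The 4 libraries held between 3091 and 7991 barcodes and between 29792902 and 58792636 unique molecular identifiers (UMIs, each standing for 1 captured RNA molecule). After filters, 532 and 243 Control and 1206 and 602 Diabetic cells were kept as endothelial. The 10 endothelial markers, Pecam1 and Cdh5 among them, were all detected and summed to between 12151 and 12879 per 1000000 UMIs in these cells. Müller glia (195, 84, 183 and 81 cells, in the order Control 1, Control 2, Diabetic 1, Diabetic 2), rods (1399, 712, 1878 and 945) and cones (211, 84, 261 and 108) served as the other classes. Control endothelial cells had a median mitochondrial share of 5.63% and 5.08%, and Diabetic ones of 2.76% and 3.53%. With cells held to at least 1000 UMIs and at most 10% mitochondrial UMIs, none of the Diabetic against Control member values reported as called lost its call. Levels below are in CPM, the UMIs of a gene per 1000000 UMIs of its class in a library, always in that library order. The 3′ chemistry counts 1 tag per molecule, and no level is compared between genes.

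The inner blood-retina barrier is formed by retinal endothelial cells that are sealed by tight junctions, so that polar nutrients must pass through the cells on carriers. Slc2a1 encodes GLUT1, which lets glucose pass down its gradient, and Slc16a1 encodes MCT1, which carries lactate, pyruvate and ketone bodies with protons. Slc38a5 encodes SNAT5, a sodium-coupled glutamine carrier of retinal vessels whose expression is known to depend on Norrin and Wnt signals. Slc7a5 (LAT1) and Slc3a2 (the heavy chain CD98) form a heterodimer that exchanges large neutral amino acids. Slc7a1 (CAT1) takes up arginine and lysine, and Slc6a6 (TauT) takes up taurine with sodium and chloride, in endothelium and in neural retina alike. Slco1a4 and Slco1c1 are organic anion carriers, and the latter is known for thyroxine transport at the blood-brain barrier.

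All 9 genes are protein-coding, and the gene identifiers in the files matched those of GENCODE M21 on GRCm38, the same build as the mm10 named in the submitters' processing notes. Slc2a1 spans chr4:119108711-119137983, Slc16a1 chr3:104638668-104658462 and Slc38a5 chrX:8271133-8280179, all on the plus strand. Slc6a6 spans chr6:91684053-91759066 and Slco1c1 chr6:141524368-141570177, also on the plus strand. On the minus strand are Slc7a5 at chr8:121881150-121907694, Slc3a2 at chr19:8706882-8723369, Slc7a1 at chr5:148327410-148399904 and Slco1a4 at chr6:141805440-141856199. Promoter windows from RefSeq (GRCm38.p6) matched 7 of the 9 genes. The sequence before the start is shown for Slc38a5 and Slc16a1, which were among the members called higher in Diabetic endothelial cells, and for the glucose carrier Slc2a1, as far as no GENCODE exon covers it, each on the plus strand and read 5′ to 3′. Capitals mark matches on either strand to the hypoxia element cores ACGTG and GCGTG and to the GC box GGGCGG. The sequences lie at chrX:8271261-8271380, chr4:119108495-119108710 and chr3:104638414-104638663.
Slc38a5: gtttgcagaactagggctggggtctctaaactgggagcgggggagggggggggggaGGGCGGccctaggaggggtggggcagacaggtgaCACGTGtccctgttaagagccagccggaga
Slc2a1: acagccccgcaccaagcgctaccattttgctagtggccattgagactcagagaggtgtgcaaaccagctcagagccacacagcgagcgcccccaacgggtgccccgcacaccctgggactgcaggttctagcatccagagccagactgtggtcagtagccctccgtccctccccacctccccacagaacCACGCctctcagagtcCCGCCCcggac
Slc16a1: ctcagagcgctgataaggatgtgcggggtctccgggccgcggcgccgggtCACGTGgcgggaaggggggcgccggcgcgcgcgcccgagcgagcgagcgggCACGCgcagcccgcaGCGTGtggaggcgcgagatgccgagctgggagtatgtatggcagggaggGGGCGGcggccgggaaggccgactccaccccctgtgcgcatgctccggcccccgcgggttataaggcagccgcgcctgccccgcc
In the full 250 bases before the start, ACGTG was found in 4 of the 7 members with a window (these 3 and Slc3a2), and in 16.6% of the 32851 promoter windows of that length in the table. GCGTG was in 2 of 7 (Slc2a1 and Slc16a1), against 28.2% of windows. The GC box was in 5 of 7 (these 3, Slc3a2 and Slc7a1), against 32.7%. The TCF/LEF cores were searched on both strands too: CTTTGA was in 2 of 7 (Slc3a2 and 1 of the 2 windows of Slc7a1), against 13.8%, and CTTTGT in Slco1c1 alone, against 16.5%. The ATF4-C/EBP element TGATGNAA, held by 3.45% of windows, was in none of the 7. The ACGTG matches of Slc38a5 and Slc16a1 are the palindrome CACGTG, in which the matches on the 2 strands overlap. In Slc2a1 the ACGTG match runs over the end of the printed stretch, where a GENCODE exon begins, and 1 of 2 GC boxes lies past it. For Slc38a5 and Slc2a1 the RefSeq start used lies inside the GENCODE gene. The whole window of Slc3a2 (chr19:8713898-8714147) lies inside its GENCODE gene, as does the Slc7a1 window that holds CTTTGA (chr5:148392816-148393065). The windows of Slc38a5, Slc2a1 and Slc16a1 are 55.2%, 66.4% and 76.4% G and C, against a median of 52.4%.

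The first comparison asked where in the retina the transporters are expressed. Of the 9 members, 9 were higher in endothelial cells than in Müller glia, and 8 were higher than in rods, in edgeR's quasi-likelihood test at a Benjamini-Hochberg adjusted p under 0.05. Large parts of the transcriptome differed between these classes, since of the 14331 genes tested 67.3% were called against Müller glia (29.5% higher in endothelial cells and 37.8% lower) and 81.2% against rods (38.0% and 43.2%). Scaling by library totals in place of TMM moved the median log2 difference of all genes from -0.14 to -0.43 against Müller glia, whose calls went from 4230 higher and 5411 lower to 3103 and 7035, and from -0.10 to -0.29 against rods. All 9 members stayed called higher than in Müller glia under both scalings, while Slc6a6 was called lower than in rods under library totals (-0.33, edgeR adjusted p = 0.0261) and with every gene of at least 1 UMI tested (-0.27, 0.0133). Slc38a5 stood at 54.6, 45.7, 92.6 and 109 in endothelial cells and at no more than 4.42 in any library of Müller glia. Its log2 difference between these classes was 5.24 ± 0.26 (SE, class sums of 4 libraries with the library as a block), with an edgeR adjusted p of 1.20e-12. In Müller glia and in rods it rested on 1 to 13 UMIs per library.

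Slc6a6 was the 1 member not called higher in endothelial cells than in rods. It stood at 2031, 1938, 2389 and 2001 in endothelial cells, at 2549, 2390, 2854 and 2719 in rods and at 2801, 2616, 3323 and 3176 in cones. Endothelial cells and rods did not differ beyond the spread (log2 difference -0.17, 95% interval -0.449 to 0.115, edgeR adjusted p = 0.260). Müller glia held less than endothelial cells, with a log2 difference of 1.24 ± 0.14 in favour of endothelium (edgeR adjusted p = 1.83e-07). These are levels of RNA, not of transport.

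RNA of other cells was present in each class. The 10 endothelial markers stood in Müller glia at 13.2% to 19.8% of their endothelial level, and in rods at 0.699% to 1.66%. The mean levels of Slc7a5, Slc7a1, Slco1a4, Slco1c1 and Slc38a5 in Müller glia were 3.49% to 9.46% of their endothelial levels, under that marker share. In each of the 4 libraries all 5 were below what endothelial RNA at the marker share would carry. Slc3a2, at 42.0% of its endothelial level, and Slc6a6, at 51.9%, were above it in 4 of 4 libraries. Slc16a1, at 20.8%, was above it in all 4 and Slc2a1, at 17.2%, in 2 of them. Rod RNA was left out of these counts, and would carry 640, 496, 1286 and 1252 Slc6a6 CPM in Müller glia. With rod and endothelial RNA added together, the carried Slc6a6 level was above the measured one in every library. For Slc16a1 the carried level was then above the measured one in both Diabetic libraries and below it in both Control libraries.

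Along the vessel, the transporters fell into different patterns. Endothelial cells were gated on arterial markers (Bmx and Sema3g among 18) and venous markers (Nr2f2 and Ephb4 among 11), none of which is a transporter described here. This gave 289 arterial, 1583 capillary and 329 venous cells, and 382 between the gates. By library there were 75, 42, 106 and 66 arterial, 343, 145, 748 and 347 capillary and 46, 20, 164 and 99 venous cells. Control venous levels thus rest on 46 and 20 cells. The zones are ranges of a score and not cell types, and 136 cells lay within 0.1 of the arterial and 157 within 0.1 of the venous limit. Venous cells were deeper, with median UMIs of 7794, 12330, 6416 and 9157 against 3563, 5063, 3262 and 4596 in capillary cells.

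Slc38a5 was the venous member. Its levels were 14.6, 0, 9.16 and 19.2 in arterial cells (0 to 8 UMIs), 31.3, 20.4, 41.9 and 41.5 in capillary cells and 161, 163, 257 and 275 in venous cells. No library of 1 zone overlapped with any library of the next. The log2 difference of venous over capillary was 2.70 ± 0.14 (edgeR adjusted p = 7.97e-14) and that of arterial over capillary was -1.66 ± 0.32 (adjusted p = 0.000865). With cells thinned to 2000 UMIs and shallower cells left out (0, 0, 9 and 4 venous and 18, 7, 122 and 23 capillary cells), 28.3%, 20%, 34.8% and 33.7% of the remaining venous cells had a UMI, against 3.38%, 5.80%, 5.91% and 7.41% of capillary cells. Without thinning the shares were 54.3%, 80%, 64.0% and 65.7% against 9.62%, 9.66%, 12.2% and 14.7%. Rods, which should lack the gene, had a UMI in 0.214%, 0.702%, 0.692% and 1.06% of cells, at median depths of 7006, 8468, 5982 and 8812 UMIs.

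Slco1c1 and Slc7a1 were lower in venous than in capillary cells. Slco1c1 declined in steps from artery to vein, at 1435, 1395, 1191 and 1432 in arterial, 909, 1090, 926 and 892 in capillary and 474, 373, 423 and 419 in venous cells. The zones did not overlap, with log2 differences of 0.54 ± 0.09 for arterial and -1.12 ± 0.10 for venous over capillary (edgeR adjusted p = 0.000236 and 6.03e-09). Slc7a1 was highest in capillaries, at 694, 687, 599 and 639. It was lower in arterial cells by a log2 of -1.09 ± 0.13 and in venous cells by -0.74 ± 0.12 (edgeR adjusted p = 1.68e-06 and 0.000130). This fit takes both groups together. Venous levels of Slc7a1 were 645, 424, 291 and 280, so the gap to capillary cells was wider in both Diabetic libraries. That difference between groups was not called (-0.63, edgeR adjusted p = 0.126). In all, 2 members were called higher and 2 lower in venous cells, beside 7.08% and 4.18% of the 8682 genes tested (11.3% in both directions). Under library totals the split of all calls went from 615 higher and 363 lower to 495 and 439, and that of the members from 2 and 2 to 2 and 4. Over all alternatives 1 to 2 members were called higher and 2 to 4 lower. In arterial cells 3 were higher and 4 lower, beside 5.63% and 3.59% (9.23%), and over the alternatives 3 were higher and 4 to 5 lower.

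Slc16a1 and Slc7a5 were low in arterial cells. Slc16a1 stood at 683, 473, 1037 and 844 there, against 1245, 1581, 2129 and 2334 in capillary and 1184, 1359, 1610 and 1530 in venous cells. Its arterial log2 difference from capillary cells was -1.24 ± 0.11 and that of Slc7a5 -1.12 ± 0.11 (edgeR adjusted p = 7.76e-09 and 1.67e-08). Slc3a2, the partner of Slc7a5, did not pass in either zone, at -0.27 ± 0.10 in arterial cells (adjusted p = 0.0784) and 0.18 ± 0.09 in venous cells (0.236). Over the 12 sums of 3 zones in 4 libraries, which share their libraries, Pearson's r between the levels of the 2 partners was 0.49.

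Slc6a6 and Slc2a1 were higher in arterial than in capillary cells. Slc6a6 stood at 2513, 2915, 3572 and 3141 in arterial and at 1707, 1433, 2359 and 1928 in capillary cells, with no overlap and a log2 difference of 0.74 ± 0.12 (edgeR adjusted p = 7.31e-05). For Slc2a1 the differences were 0.43 ± 0.08 in arterial and 0.33 ± 0.08 in venous cells (adjusted p = 0.00104 and 0.00956), and the venous call was lost without Diabetic 1 (0.30), without Diabetic 2 (0.24) and with cells gated after thinning (0.25). Slco1a4 passed in neither zone, with differences from capillary of -0.02 (95% interval -0.20 to 0.17) in arterial and -0.04 (-0.23 to 0.14) in venous cells.

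**Figure D1:**
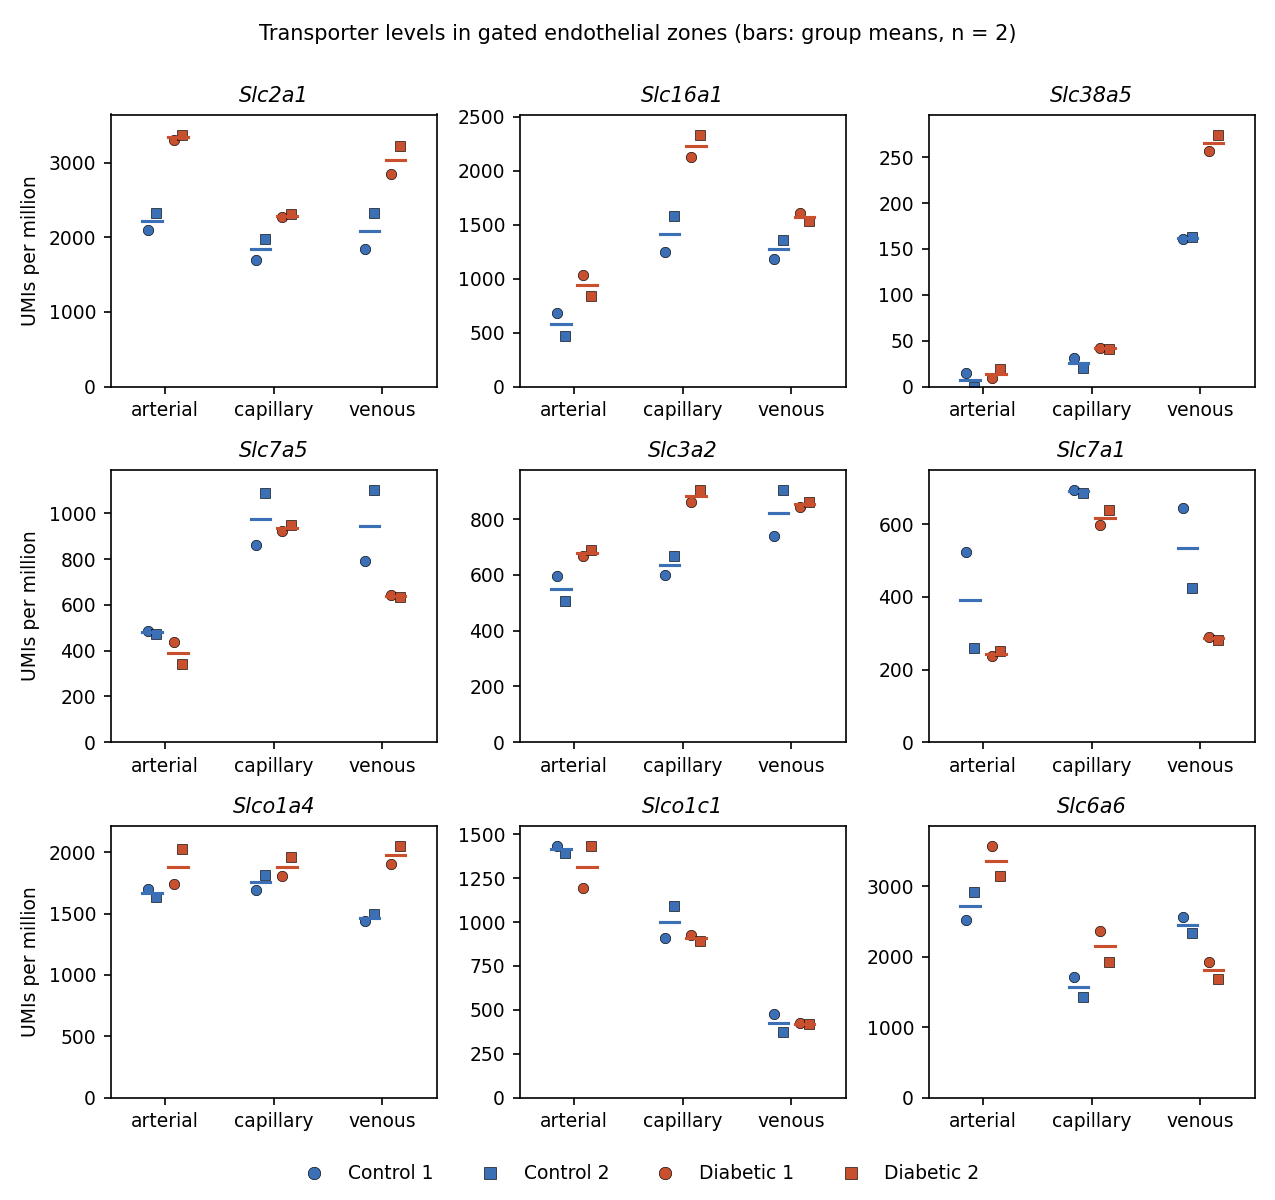
Levels of the 9 transporters (vertical axes, CPM, each from 0) in arterial, capillary and venous endothelial cells, with 1 point per library and a bar for each group mean. Slc38a5 is highest in venous cells (161 to 275), Slco1c1 in arterial cells (1191 to 1435) and Slc16a1 lowest in arterial cells (473 to 1037).

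The second comparison set Diabetic against Control endothelial cells. Slc38a5, Slc16a1 and Slc3a2 rose, 3 of the 9 members, where 2.31% of the 12230 genes tested were called higher, and none of the 9 was called lower, where 1.10% were (3.41% in both directions). The median log2 fold change of the 9 was 0.18, and that of all genes -0.01. The levels of 5 members did not overlap between groups with Diabetic higher, and those of 2 with Diabetic lower, beside 23.9% and 23.3% of all genes tested.

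Slc38a5 had 54.6 and 45.7 CPM in Control and 92.6 and 109 in Diabetic libraries, so every Diabetic library was above both Control libraries. Its log2 fold change was 0.99 ± 0.14 (SE, edgeR adjusted p = 0.00304). Endothelial cells were then split by inflamed venous markers (Lcn2, Lrg1, Ackr1, Vcam1, Icam1, Selp and Sele, acute-phase, chemokine-binding and leukocyte adhesion genes). At least 2 UMIs of these 7 genes were found in 6.95% and 9.05% of Control and in 22.6% and 28.9% of Diabetic endothelial cells. Cells below that limit held Slc38a5 at 42.4, 33.7, 41.3 and 30.8, and those above it at 134, 103, 189 and 207. Among cells below the limit the log2 fold change was -0.10 (edgeR adjusted p = 0.890), against the 0.99 over all cells. The limit is a count of UMIs, so deeper cells reach it more readily. It also took out 26.1% and 40% of Control and 68.3% and 76.8% of Diabetic venous cells, the zone where Slc38a5 was highest. The share of endothelial cells gated as venous also differed, at 8.65% and 8.23% in Control and 13.6% and 16.4% in Diabetic. With 20 cells drawn from each zone of each library the fold change was 0.92 and was no longer called (adjusted p = 0.119).

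Slc16a1 stood at 1167 and 1335 in Control and 1842 and 1869 in Diabetic, with both Diabetic libraries higher. The log2 fold change was 0.57 ± 0.10 (edgeR adjusted p = 0.0113). It was as large among cells without inflamed markers, at 0.70 (edgeR adjusted p = 0.00115), where the levels were 1160, 1346, 2022 and 2112. With equal numbers of cells from each zone it was 0.37 (adjusted p = 0.521).

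Slc3a2 stood at 620 and 675 in Control and at 855 and 900 in Diabetic, without overlap (log2 fold change 0.44 ± 0.10, edgeR adjusted p = 0.0390). Its call was lost without Control 1 (0.38, adjusted p = 0.102), without Diabetic 2 (0.39, 0.261) and without cells carrying inflamed markers (0.34, 0.102), and with equal numbers from each zone the value was 0.02 (0.982). Its partner Slc7a5 did not pass, with overlapping levels of 777, 977, 797 and 799 and a log2 fold change of -0.13 (95% interval -0.395 to 0.130, adjusted p = 0.630).

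The glucose carrier Slc2a1 missed the threshold. The Control libraries held 1819 and 2172 CPM and the Diabetic libraries 2639 and 2788, both of them higher, with a log2 fold change of 0.45 (95% interval 0.20 to 0.69, edgeR adjusted p = 0.0605). It was called without Control 2 (0.59), without Diabetic 1 (0.51), under library totals (0.44, adjusted p = 0.0429) and with every gene of at least 1 UMI tested (0.47). Slc7a1 was lower in both Diabetic libraries, at 654 and 540 against 462 and 461, and did not pass either (-0.37 ± 0.11, adjusted p = 0.103). It was called without Control 2 (-0.49) and with every gene of at least 1 UMI tested (-0.35). Without inflamed markers its levels were 657, 555, 569 and 602, which overlap, and with them 633, 472, 261 and 285. Slco1c1 (-0.25, adjusted p = 0.225), Slco1a4 (0.18, 0.419) and Slc6a6 (0.15, 0.525) were not called.

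**Figure D2:**
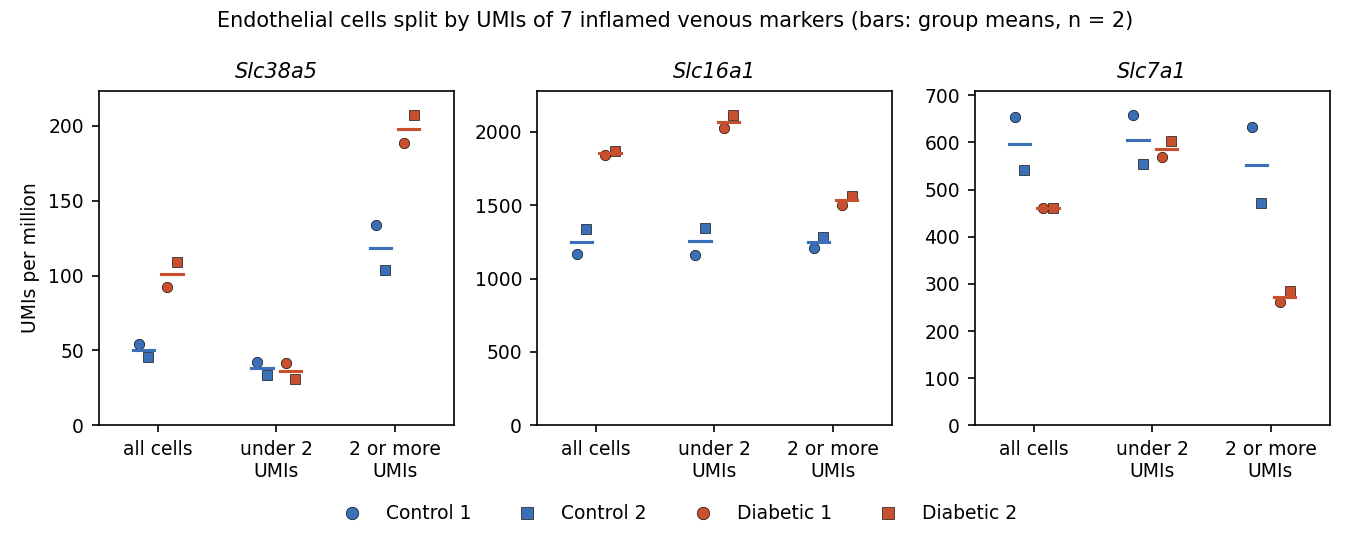
Slc38a5, Slc16a1 and Slc7a1 in endothelial cells (vertical axes, CPM), for all cells and for cells under and at or above 2 UMIs of the 7 inflamed venous markers, with 1 point per library and bars for group means. Among cells under that limit Slc38a5 lies between 30.8 and 42.4 in both groups, while Slc16a1 is higher in Diabetic libraries on both sides of it.

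Within zones, most of the members were not called. In capillary cells Slc16a1 alone was called higher, 1 of 9 beside 0.743% of the 10638 genes tested (1.20% in both directions), at 1245 and 1581 against 2129 and 2334 with a log2 fold change of 0.63 ± 0.12 (edgeR adjusted p = 0.0130). That call was just missed without Control 1 (0.47, adjusted p = 0.0525) and with cells gated after thinning (0.54, 0.0510). Slc3a2 (0.45, 0.0643), Slc6a6 (0.41, 0.106), Slc38a5 (0.59, 0.271) and Slc2a1 (0.28, 0.265) were higher in both Diabetic libraries and did not pass. Slc3a2 was called without Control 2 (0.53), under library totals (0.48) and with the stricter cell filter (0.45), and Slc6a6 without Control 1 (0.55), without Diabetic 2 (0.54) and with the stricter gate (0.52). With every gene of at least 1 UMI tested, Slc3a2 (0.49), Slc6a6 (0.46) and Slc2a1 (0.33) were called. Groups did not overlap for 5 members with Diabetic higher and 1 with Diabetic lower, beside 24.8% and 17.4% of genes. No capillary member was called lower, beside 0.461% of genes.

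In arterial cells none of the 8 members tested was called, beside 0.711% of the 6327 genes (0.458% higher and 0.253% lower), while 724 genes had an unadjusted p under 0.05. DESeq2 called 23 genes and no member there, with 193 genes at an unadjusted p under 0.05. Without Diabetic 1 or without Diabetic 2 edgeR called 0 genes, with 334 and 327 at an unadjusted p under 0.05. The largest values were those of Slc7a1 (-0.70 ± 0.27, edgeR adjusted p = 0.341), Slc16a1 (0.69 ± 0.18, 0.151) and Slc2a1 (0.57 ± 0.13, 0.0849). Each was called without 1 Control library, Slc16a1 without Control 1 (0.97), Slc7a1 without Control 2 (-1.11) and Slc2a1 without either (0.49 and 0.66). Slc2a1 was also called under library totals (0.59), and with every gene of at least 1 UMI tested both Slc2a1 (0.60) and Slc16a1 (0.71) were. Slc38a5, with 0 to 8 UMIs per library, was not tested there. Groups did not overlap for 5 members with Diabetic higher and 2 with Diabetic lower, beside 22.5% and 19.7% of genes.

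In venous cells Slc38a5 rose and Slc7a1 fell, beside 2.05% and 0.640% of the 8910 genes tested (2.69% in both directions). Slc38a5 went from 161 and 163 to 257 and 275 (log2 fold change 0.76 ± 0.17, edgeR adjusted p = 0.0343). Slc7a1 went from 645 and 424 to 291 and 280 (-0.86 ± 0.19, adjusted p = 0.0304). Neither overlapped between groups, as was so for 4 members with Diabetic higher and 3 with Diabetic lower, beside 20.4% and 24.8% of genes. Both calls were lost with DESeq2 (adjusted p = 0.428 and 0.0834) and on leaving out Diabetic 1 (0.84 and -0.85) or Diabetic 2 (0.69 and -0.85). That of Slc7a1 was also lost without Control 1 (-0.53), and that of Slc38a5 without barcodes high in other cells' markers (0.51, edgeR adjusted p = 0.221). Slc2a1 (0.60, edgeR adjusted p = 0.0695) and Slco1a4 (0.48, 0.0934) did not pass, and were called without Control 1 (0.43 and 0.44) or Control 2 (0.80 and 0.54). Slc16a1 (0.36) was called without Control 2 (0.48) and Slc7a5 (-0.51) without Control 1 (-0.75) or without barcodes high in other cells' markers (-0.52). With every gene of at least 1 UMI tested, Slc2a1 (0.67) and Slco1a4 (0.56) were called. The cells inside the venous gate differed between groups in other genes. Inflamed markers, kept out of the gate, summed to 206 and 279 CPM in Control and 4445 and 4846 in Diabetic venous cells, and 26.1% and 40% against 68.3% and 76.8% of the cells carried at least 2 such UMIs. The gate marker Vwf was itself among the top genes of a cluster led by Lcn2 and Lrg1, with 9, 5, 78 and 54 cells. Summed arterial markers were also higher in Diabetic venous cells, at 4788 and 4691 against 1542 and 1977 in Control, and capillary markers lower, at 4769 and 4834 against 7435 and 7663. The part of these in the venous results was not tested beyond the split that follows. Among venous cells below the inflamed limit (34, 12, 52 and 23 cells), Slc38a5 stood at 140, 176, 148 and 56.4 (log2 fold change -0.51, adjusted p = 0.875) and Slc7a1 at 663, 445, 476 and 494 (-0.27, 0.903).

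For Slc6a6 the group difference itself differed between capillary and venous cells. In capillary cells it was higher in Diabetic libraries (1707 and 1433 against 2359 and 1928), and in venous cells it was lower (2563 and 2341 against 1922 and 1688), with no overlap in either. Neither single comparison passed, at 0.41 (edgeR adjusted p = 0.106) and -0.39 (0.174), although the venous value was called without Control 2 (-0.43) and without barcodes high in other cells' markers (-0.47, adjusted p = 0.0437). The difference between them did, with a log2 value of -0.78 ± 0.13 (adjusted p = 0.00100). As fitted, it was the 1 member called among the 9 in this test of the difference, beside 0.242% of 8682 genes called lower, 0.518% higher and 0.760% in both directions. Under library totals that split went from 45 higher and 21 lower to 34 and 43. The value was -0.75 without Diabetic 1, where it was no longer called (adjusted p = 0.0820). Rod markers in venous cells stood at 14.9%, 4.25%, 6.84% and 4.08% of the rod level, which would carry 379, 102, 195 and 111 Slc6a6 CPM. Venous cells below the inflamed limit held 2214 and 2474 in Control against 2726 and 2341 in Diabetic (log2 fold change 0.082, edgeR adjusted p = 0.988). Slc7a1 was at -0.63 (adjusted p = 0.126) in this test and was called in 5 of 8 alternatives: without Control 2 (-0.92), under library totals (-0.73), with every gene of at least 1 UMI tested (-0.60), with the stricter gate (-0.87) and with cells gated after thinning (-1.05). No member was called in the difference between arterial and capillary cells, where 0.0230% of 8682 genes were (0.0115% in each direction), and 536 genes had an unadjusted p under 0.05. DESeq2 was not run on these differences.

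**Figure D3:**
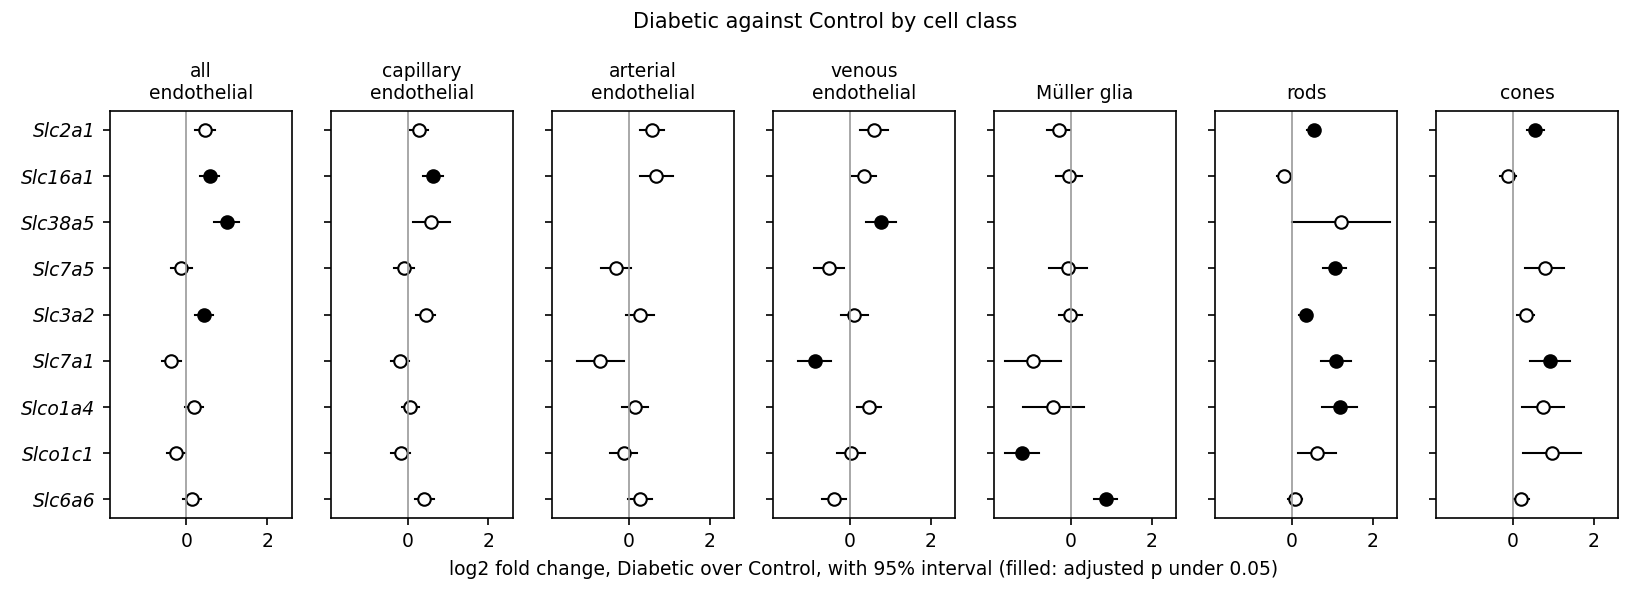
Log2 fold change of Diabetic over Control (horizontal axes) with 95% intervals for the 9 transporters in 7 classes of cells, filled where the adjusted p was under 0.05. Members not tested in a class have no point. Among all endothelial cells the filled points are Slc38a5, Slc16a1 and Slc3a2, and Slc6a6 (0.86) and Slco1c1 (-1.21) point in opposite directions in Müller glia.

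The third comparison set the groups against each other in glia and photoreceptors. In Müller glia Slc6a6 rose, 1 of 8 members tested beside 4.57% of 10944 genes, and Slco1c1 fell, beside 3.27% (7.84% in both directions). Under library totals the split of all calls went from 500 higher and 358 lower to 547 and 231. Slc6a6 stood at 803 and 714 in Control and 1514 and 1354 in Diabetic (log2 fold change 0.86 ± 0.14, edgeR adjusted p = 0.000483). Rod markers moved with it. Their sum in Müller glia was 25.1% and 20.8% of the rod level in Control and 45.1% and 46.0% in Diabetic. Rod RNA at those shares would carry 640, 496, 1286 and 1252 Slc6a6 CPM, below the measured level in all 4 libraries. That carried level was also higher in Diabetic. Endothelial RNA at the share of its markers would carry a further 403, 316, 316 and 336. Added together, these 2 carried levels were above the measured Slc6a6 level in every library. Whether any rise remains beyond both was not tested. Slco1c1 stood at 104 and 137 in Control and 43.1 and 65.6 in Diabetic (-1.21 ± 0.20, adjusted p = 0.000930). In each library this was below the 182, 169, 109 and 136 that endothelial RNA at the share of the endothelial markers would carry. Groups did not overlap for 1 member with Diabetic higher and 2 with Diabetic lower, beside 29.9% and 21.6% of genes.

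**Figure D4:**
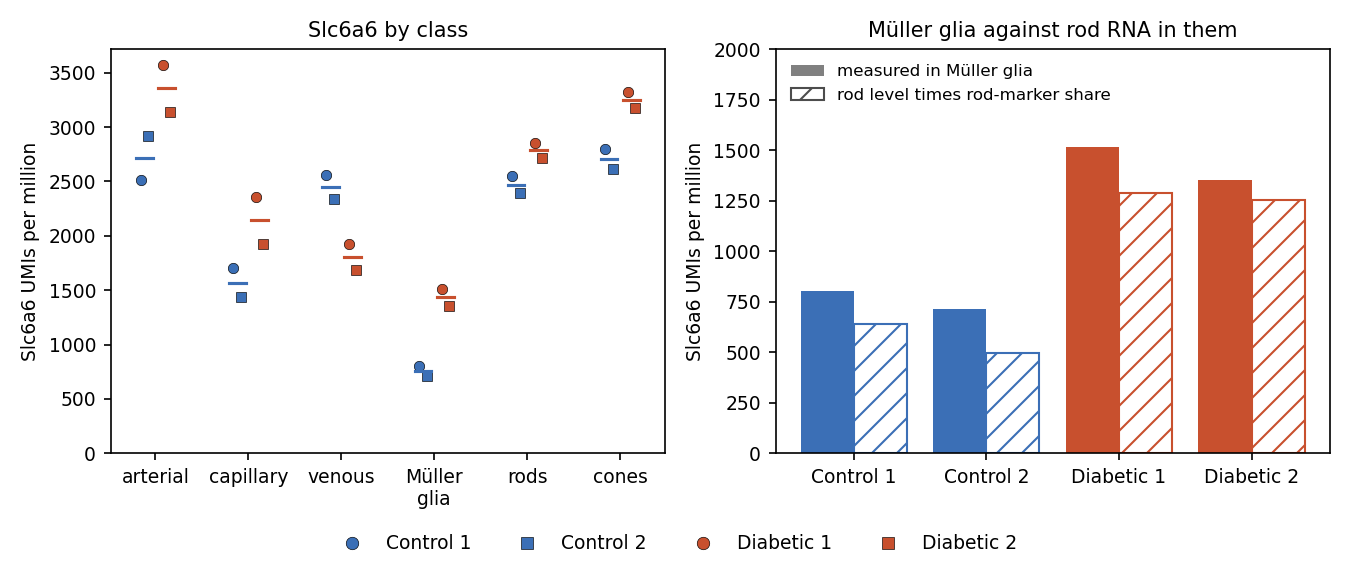
Left, Slc6a6 (CPM) by class, 1 point per library with bars for group means. Right, Slc6a6 measured in Müller glia (filled bars, 714 to 1514) beside the rod level multiplied by the share of rod markers found in Müller glia (hatched bars, 496 to 1286), by library.

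In rods 5 members rose, beside 8.03% of 14964 genes, and none fell, beside 6.41% (14.4% in both directions). Under library totals the split of all calls went from 1202 higher and 959 lower to 2003 and 431. The 5 were Slc2a1 (74.8, 74.2, 117 and 114, log2 fold change 0.53 ± 0.07, edgeR adjusted p = 0.00106), Slc3a2 (113, 113, 158 and 148, 0.34 ± 0.07, 0.0135), Slc7a5 (11.5, 9.77, 24.3 and 23.1, 1.05 ± 0.12, 0.000658), Slc7a1 (10.2, 6.52, 19.8 and 19.0, 1.10 ± 0.17, 0.00278) and Slco1a4 (9.11, 6.52, 22.5 and 15.4, 1.18 ± 0.20, 0.00470). All 5 are among the 8 members whose groups did not overlap with Diabetic higher, beside 42.3% of genes, and Slc16a1 was lower without overlap, beside 17.7%. Endothelial markers in rods were also higher in Diabetic, at 1.10% and 0.699% of the endothelial level in Control and 1.66% and 1.36% in Diabetic. Endothelial RNA at those shares would carry 18.2, 12.4, 30.6 and 27.6 Slco1a4 CPM, above the measured level in all 4 libraries. For Slc7a5 it would carry 8.55, 6.83, 13.3 and 10.9 and for Slc2a1 20.03, 15.2, 43.9 and 37.9, below the measured levels in all 4. Slc7a1 would be carried at 7.20, 3.78, 7.69 and 6.26, also below its measured levels. The call for Slc3a2 was lost without Control 1 (0.33), Control 2 (0.34) or Diabetic 1 (0.28). Slc6a6 was not called there (0.08, adjusted p = 0.548).

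In cones Slc2a1 rose from 73.9 and 79.6 to 113 and 121 (log2 fold change 0.55 ± 0.11, edgeR adjusted p = 0.00308), and Slc7a1 from 8.01 and 8.81 to 16.9 and 15.8 (0.91 ± 0.245, 0.0351), 2 of 8 members beside 1.73% of 11820 genes called higher, 1.40% lower and 3.12% in both directions. Under library totals the split of all calls went from 204 higher and 165 lower to 323 and 88. Among the 8 members tested, groups did not overlap for 7 with Diabetic higher and 1 with Diabetic lower, beside 30.8% and 16.8% of genes. DESeq2 called neither (adjusted p = 0.0685 and 0.584), and the call for Slc7a1 was also lost without Control 1 (0.84), Control 2 (0.97) or Diabetic 1 (0.86). Endothelial markers stood in cones at 0.763%, 0.595%, 1.37% and 0.970% of the endothelial level. Slc6a6 was at 0.21 and did not pass (adjusted p = 0.207).

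The difference of the group effects between classes was tested directly. Endothelial cells and Müller glia differed for 4 members, with Slc2a1 (0.76 ± 0.15, edgeR adjusted p = 0.00143), Slc16a1 (0.63 ± 0.17, 0.0162) and Slco1c1 (0.97 ± 0.23, 0.00700) moving up in endothelium relative to glia and Slc6a6 moving down (-0.71 ± 0.16, 0.00357). The shares of all 14331 genes were 2.71% and 3.08% (5.80% in both directions). The calls were lost for Slc2a1 without Control 1 (0.73), for Slc16a1 without Control 1 (0.48) or Diabetic 1 (0.46), for Slco1c1 without Control 2 (0.86) or Diabetic 1 (0.70), and for Slc6a6 without Control 1 (-0.70), Control 2 (-0.67) or Diabetic 2 (-0.63). For Slc2a1 the effect was 0.45 in endothelial cells and -0.30 in Müller glia, where neither passed its own test. Slc2a1 stood in Müller glia at 410, 433, 329 and 385, where endothelial RNA would carry 361, 355, 349 and 468. Slc16a1 stood there at 329, 284, 262 and 364. Endothelial RNA would carry 231, 218, 244 and 314 of it, and rod RNA 66.1, 58.1, 111 and 119. The part of carried RNA in these differences was not tested. Endothelial cells and rods differed for Slc16a1, which moved up in endothelium relative to rods (0.83 ± 0.15, edgeR adjusted p = 0.000404). Slc7a5 (-1.12 ± 0.19, 0.000284), Slc7a1 (-1.43 ± 0.15, 1.76e-08) and Slco1c1 (-0.80 ± 0.22, 0.0268) moved down relative to rods. The shares of all genes were 1.86% and 1.72% (3.57% in both directions). In that order, the effects of Slc7a5, Slc7a1 and Slco1c1 were -0.13, -0.37 and -0.25 in endothelial cells, none of them called. In rods they were 1.05, 1.10 and 0.61, the last not called. The call for Slco1c1 in the difference was lost without Control 2 (-0.56) or Diabetic 1 (-0.55), and its level in rods was below the carried level in all 4 libraries. Under library totals the median of all genes in this test went from 0.02 to -0.12 and the split of calls from 266 higher and 246 lower to 113 and 537. The 2 endothelial fits share the same endothelial libraries.

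In each of 6 further lists no more than 1 gene was called in endothelial cells, beside 3.41% of all genes tested, so the counts are a description and no result about a list. Of 16 further amino acid transporters tested, of 24 listed, 1 was lower and none higher. It was Slc1a1, the glutamate carrier EAAC1, at -0.57 ± 0.10 (edgeR adjusted p = 0.00939), and in capillary cells, where it was 1 of 12 tested beside 1.20% of all genes, at -0.68 ± 0.13 (0.0105). None of 4 tested glucose and monocarboxylate genes (of 11), 11 organic anion, thyroid hormone and efflux genes (of 11) or 20 lipid, nucleoside, vitamin and ion carriers (of 20) was called. Of 14 tested amino acid deprivation genes (of 16 listed), which answer to the factor ATF4, only the transcription factor Cebpb was called, at 1.13 ± 0.23 (0.0238), and Atf4 itself stood at 0.18 ± 0.10 (0.371). None of 15 tested Norrin and Wnt genes (of 17) was called, with a list median of -0.11 beside -0.01 for all genes, and Fzd4, the Norrin receptor, stood at -0.35 ± 0.10 (0.0824). In venous cells 1 of 10 amino acid deprivation genes, 1 of 15 Norrin and Wnt genes and 1 of 10 organic anion genes tested were called, beside 2.69% of all genes. Cebpb was higher (1.44 ± 0.29, 0.0193), and Ctnnb1, which encodes beta-catenin (-0.69 ± 0.15, 0.0262), and the organic anion carrier Slc22a8 (-0.91 ± 0.18, 0.0185) were lower.

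Across the 12 sums of 3 zones in 4 libraries, the genes most like Slc38a5 among 3763 with at least 50 CPM were the ribosomal protein genes Rpl37a, Rpl22, Rpl9, Rpl37 and Rps24, with Pearson's r of log2 levels between 0.97 and 0.98. Those most like Slc2a1 were Adgrg1, Ucp2, Ehd1, Arpc1b and Ly6a, with r from 0.94 to 0.97. The sums share libraries and zones, so r is a description of these 12 points.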

How the data were processed

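The deposited matrices held raw UMI counts per gene and cell barcode, made by the authors with Cell Ranger 7.0.0 per the file headers; the submitters' processing notes also name STAR 2.7.10b and mm10. No normalization had been applied, and every count was a whole number. The deposited totals were 54901304, 29792902, 58792636 and 41239892 UMIs.

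Barcodes were kept from 500 UMIs and 300 genes upward where mitochondrial UMIs made up 20% or less. Scrublet removed 0.613%, 2.42%, 6.86% and 2.84% of them as doublets; where its automatic threshold marked under 0.5%, a rate of 0.8% per 1000 cells was used. Libraries shared 3 to 9 barcodes in each pair. Cells were clustered together (scanpy 1.11.5, 2000 variable genes, 30 components, 20 neighbours, Leiden resolution 1, leidenalg 0.10.2) without the transporters or the further lists. Endothelial cells were the cells of 5 clusters with at least 40 endothelial and under 60 pericyte and smooth muscle marker UMIs per 10000 UMIs. Zones were gated on the mean z-score of arterial and venous markers: at least 0.4 and above the other score for artery or vein, both under 0.2 for capillary. Cluster choices, gates and their limits were set after the data had been seen, and classes rest on markers alone.

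For every library the counts of each class were added up across its cells. The main test was edgeR 4.0.16 (R 4.3.3; TMM, filterByExpr, quasi-likelihood F test, two-sided, Benjamini-Hochberg adjustment over all genes tested, threshold 0.05), checked on simulated counts. The 7 Diabetic against Control comparisons were fitted 1 class at a time without a block. The tests between zones, between classes and of differences in the Diabetic effect used the sums of all 4 libraries with the library as a block. Their p-values thus measure the spread of differences within libraries. DESeq2 1.42.0 was an alternative for the 7 Diabetic against Control comparisons. Replicates of a group differed beyond counting noise (chi-square per degree of freedom 3.66 in Control and 3.98 in Diabetic). Levels are CPM without a pseudocount, except r (pseudocount 1). Intervals are 95% and those on fold changes use the edgeR standard error. Cell shares and floors cover counting error only. The level that other cells' RNA would carry is the source level times the share of the source's markers found in the class; it assumes that all RNA of the source is carried alike.

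The 9 members and the further lists were chosen with earlier results of these data known. Named genes were the 9 members, up to 3 called genes of each further list with the largest change and a mean of at least 10 CPM, and 5 genes most like Slc38a5 and Slc2a1; Atf4 and Fzd4 were named after their values had been seen.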

Additional observations from a re-analysis of the deposited data

Results flagged for a closer look

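The effect of Diabetic against Control differed between classes of cells, by edgeR's test of the difference, for 9 member values. Slc6a6 stood apart between venous and capillary cells (log2 difference of effects -0.78). Between endothelial cells and Müller glia the differences were 0.76 for Slc2a1, 0.63 for Slc16a1, 0.97 for Slco1c1 and -0.71 for Slc6a6. Between endothelial cells and rods they were 0.83 for Slc16a1, -1.12 for Slc7a5, -1.43 for Slc7a1 and -0.80 for Slco1c1. The values for Slco1c1 rest on levels in Müller glia and rods that are below what carried endothelial RNA would give, and that for Slc6a6 in Müller glia moved with rod markers. In rods Slc7a5 stood at 9.77 to 24.3 CPM, where carried endothelial RNA would give 6.83 to 13.3. Slc7a1 stood there at 6.52 to 19.8, where it would give 3.78 to 7.69. In Müller glia Slc2a1 was above the carried endothelial level in 2 of 4 libraries. Slc16a1 was above it in all 4, but with carried rod RNA added it was above the carried level in the Control libraries only.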

How the results depend on the processing

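Over the alternatives, called member values kept direction and call in 270 cases, lost the call in 39 and reversed in 2. Those not called stayed so in 225, gained a call in 50 and reversed in 2. Without cells carrying inflamed markers Slc38a5 turned to -0.10 in endothelial and -0.51 in venous cells and Slc6a6 to 0.082 in venous cells. Slc7a5 in endothelial cells ran from -0.29 to 0.051 on leaving out 1 library. With 2 libraries per group, leaving 1 out assumes that the lone sample varies like the others.

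Counts of called genes moved as follows. DESeq2 called 270 in endothelial, 81 in capillary, 23 in arterial and 117 in venous cells, 240 in Müller glia, 960 in rods and 58 in cones. Testing every gene with at least 1 UMI gave 970, 315, 165 and 544 in the first 4, and 113 and 18 for the venous and arterial differences from capillary cells in the Diabetic effect. Equal zones gave 78 and the removal of inflamed-marker cells 144 in endothelial cells and 12 in venous cells, with fewer cells in each. Arterial calls were 78 with the stricter cell filter, 18 with the stricter gate and 76 with thinned gating. The last 2 gave 7 and 12 for the arterial difference in the Diabetic effect, and thinned gating gave 636 for venous against capillary cells.

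Leaving out 1 library at a time gave 151 to 193 calls in capillary, 0 to 174 in arterial and 138 to 725 in venous cells, 324 to 1148 in Müller glia, 1027 to 2245 in rods and 132 to 414 in cones. The zone comparisons ran from 431 to 1083 (venous) and 519 to 659 (arterial), and the differences in the Diabetic effect from 23 to 121 (venous minus capillary), 1 to 42 (arterial minus capillary), 190 to 549 (endothelial minus Müller glia) and 170 to 405 (endothelial minus rods).

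The groups share replicate numbers, but the labels state no batch and there are only 2 pairs, so the numbers were not taken to pair libraries. Same-numbered libraries correlated in their deviations at 0.461 in endothelial cells, 0.157 in Müller glia, 0.342 in rods and 0.238 in cones. With a replicate block, calls were 1471 in endothelial, 528 in capillary and 212 in arterial cells, 1497 in Müller glia, 4341 in rods and 899 in cones. Of the member values, 27 kept their call status under the block and 10 gained a call. These were Slc2a1 (0.45), Slc7a1 (-0.37) and Slco1c1 (-0.25) in endothelial cells, Slc3a2 (0.45), Slc6a6 (0.42) and Slc2a1 (0.29) in capillary cells, Slc2a1 (0.58), Slc16a1 (0.69) and Slc7a1 (-0.67) in arterial cells and Slc2a1 (0.60) in venous cells.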

Other observations

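Levels of other members also stood apart between endothelial cells with and without inflamed venous markers, given here as values with no test, in the order Control 1, Control 2, Diabetic 1, Diabetic 2. Slco1c1 had 962, 1115, 995 and 993 CPM in cells under 2 such UMIs and 624, 653, 501 and 587 in the others, with no overlap between the kinds of cell in either group. Zones were not matched in this split, and Slco1c1 was low in venous cells. Within the venous gate it had 553, 327, 808 and 635 under the limit and 368, 401, 323 and 391 above it, so Control 2 went the other way. Slc6a6 had 1917, 1917, 2605 and 2248 CPM under that limit and 2771, 2041, 1984 and 1690 above it, so that cells with the markers were higher in both Control libraries and lower in both Diabetic ones. Within the venous gate Slc6a6 had 2214, 2474, 2726 and 2341 under the limit and 3033, 2261, 1713 and 1601 above it. There the cells with the markers were lower in Control 2 as well.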
